A study of Macaca mulatta with 12 samples.

Results

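HMOX1 and 7 other genes of defence against oxidants (NQO1, GCLM, GCLC, TXNRD1, SRXN1, SOD2 and CAT) were followed through 4 culture conditions of rhesus macaque cells. The genes were taken by symbol, with earlier results of these data known, and all 8 were among the 16745 genes of the deposited table. Of the 8, 6 had reads and could be tested, and 2, TXNRD1 and SOD2, were listed at 0 in every library. The cells are labelled as cardiomyocytes made from induced pluripotent stem cells, grown in RPMI with B27 and insulin in all 4 groups. They were kept either as a monolayer (2D) or as engineered heart tissue (EHT, 3D), in which cells are cast into a block of tissue, and either in normoxia or after hypoxia. Each of the 4 groups (monolayer normoxia, monolayer hypoxia, EHT normoxia, EHT hypoxia) had 3 libraries, 12 in all. Hypoxia is described as 24 hours in an anaerobic pouch followed by 24 hours after fresh medium, in a text that stands on all 12 samples, normoxia included. The labels do not say at which point RNA was taken, how many cell lines or clones were used, or whether the 3 libraries of a group came from separate cultures. P-values therefore measure only the spread between these libraries.

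Heme oxygenase 1, the product of HMOX1, breaks heme into biliverdin, carbon monoxide and iron. GCLC and GCLM are the catalytic and modifier subunits of the enzyme that makes the first, rate-limiting step of glutathione synthesis. NQO1 reduces quinones, SRXN1 repairs over-oxidised peroxiredoxins, and TXNRD1 keeps cytosolic thioredoxin reduced. These genes are classical targets of NRF2 (gene NFE2L2), a transcription factor that KEAP1 holds for degradation until oxidants or electrophiles modify KEAP1. NRF2 pairs with small MAF proteins at antioxidant response elements, where the repressor BACH1 competes with it, and BACH1 is released from DNA when it binds heme. HMOX1 is under particularly strong BACH1 control and is also known to respond to hypoxia and to reoxygenation in heart muscle. SOD2, the manganese superoxide dismutase of mitochondria, and CAT, the peroxisomal catalase that removes hydrogen peroxide, are less strictly tied to NRF2.

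Reads recovered per library ran from 4154346 to 11298841. Levels are given as RPM, the gene's reads scaled to a library total of 1000000 reads, which cannot be compared between genes of different length. RPM is a share of reads, so between libraries it also moves with the reads that other genes take. This shift was largest for hypoxia minus normoxia in monolayer, where the median difference of all genes tested was -0.65 on log2(RPM + 1). Tests used the deposited log2 values after each library's median over 12084 tested genes was subtracted, here called centred log2 values, and a call is a Benjamini-Hochberg adjusted p under 0.05 in limma. Centring mattered: it added 0.74 to every EHT minus monolayer difference in normoxia, 0.04 to those in hypoxia, and 0.55 to every hypoxia minus normoxia difference in monolayer. In EHT it lowered the hypoxia differences, adding -0.15. Before it, the medians of the libraries spanned 6.98 to 8.75, with replicate 3 of monolayer normoxia on top. Replicate 3 of EHT hypoxia stood apart from its group in these genes, so the calls of the 6 genes and the counts of the lists are also given without it. Leaving out a library for its values in these genes narrows their spread. P-values and calls without it are therefore a description and not tests of their own. Cardiomyocyte markers took a small part of the reads, from 0.00218% to 0.616% per library for 12 markers, against 3.31% to 7.02% for 8 fibroblast markers. In bulk RNA, fewer cells of a type and less RNA per cell cannot be told apart.

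HMOX1 rose after hypoxia in both cultures and reached its highest level in EHT. It had 10.8, 17.2 and 14.5 RPM in monolayer normoxia and 14.7, 10.6 and 24.9 in EHT normoxia. After hypoxia it had 58.6, 45.4 and 51.5 RPM in monolayer and 139.9, 165.7 and 536.6 in EHT. Every hypoxia library lay above every normoxia library, every EHT hypoxia library lay above every monolayer hypoxia library, and the normoxia groups overlapped. On the centred log2 scale the rise in monolayer was 2.46 ± 0.42 (SE, 3 against 3 libraries, adjusted p = 0.000418), which is 5.49-fold. On the uncentred values the rise in monolayer was 1.91, and over the alternatives it ran from 1.81 to 2.58. In EHT the centred rise was 3.93 ± 0.42 (adjusted p = 2.25e-05), or 15.3-fold. Without replicate 3 of EHT hypoxia, the library with the highest HMOX1, the EHT rise was 3.29 ± 0.24, or 9.79-fold, with the remaining 2 libraries still above all others.

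**Figure D1:**
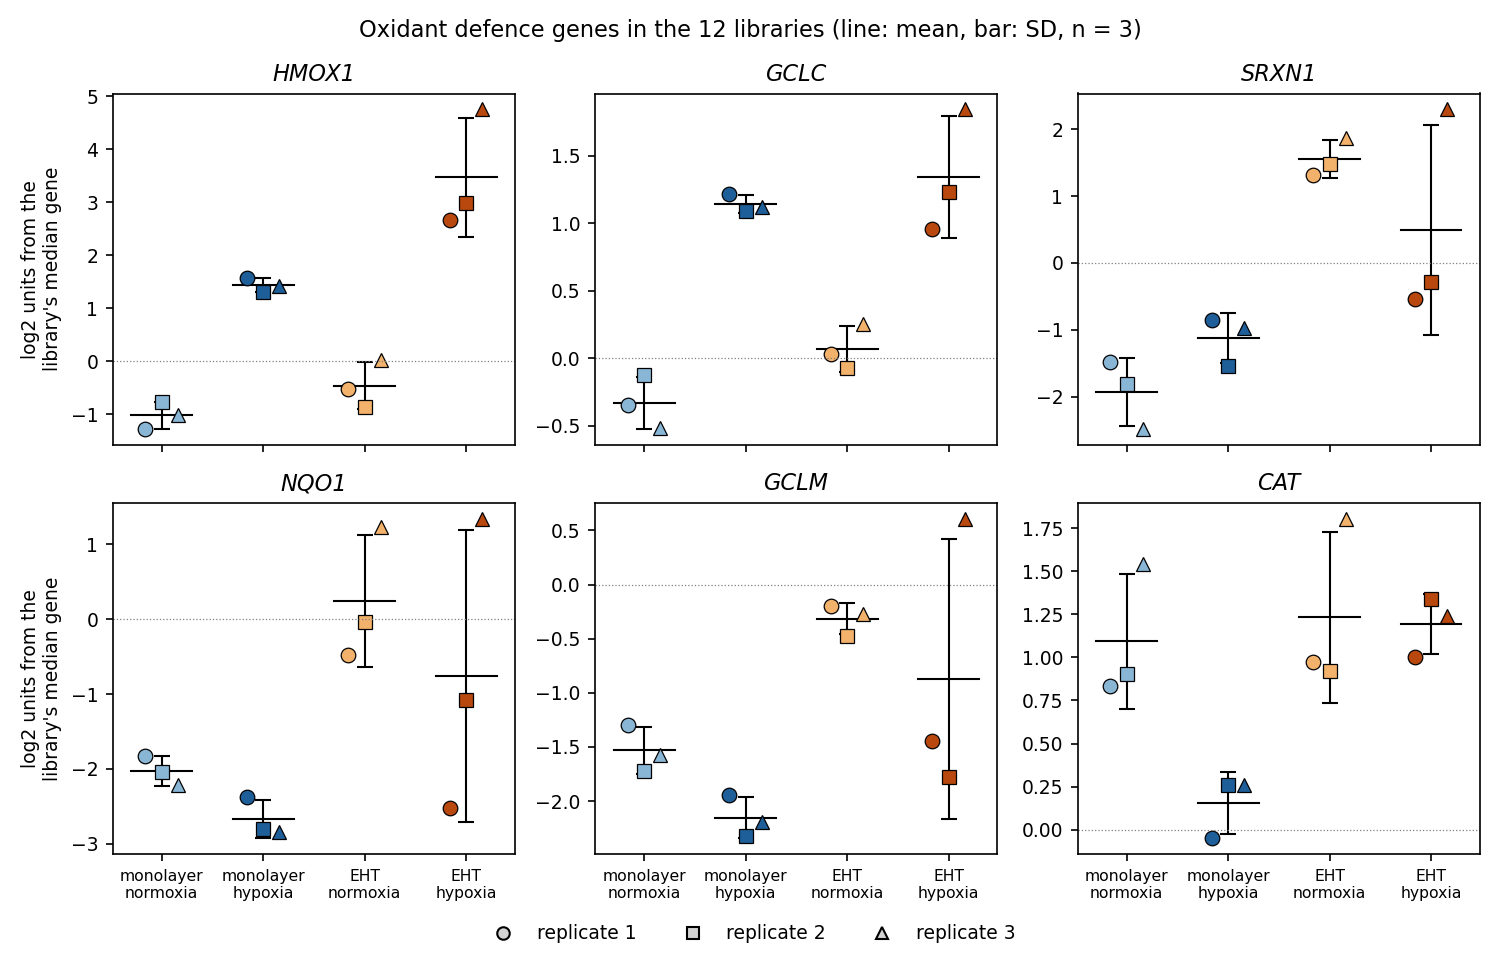
Each panel shows 1 of the 6 genes with reads: the centred log2 value of each library (y axis) by group (x axis), with the marker shape giving the replicate number, lines for group means and bars for the SD (n = 3). HMOX1 is higher in all 6 hypoxia libraries than in all 6 normoxia libraries, and replicate 3 of EHT hypoxia (triangle) tops its group for every gene but CAT.

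Between cultures, HMOX1 differed after hypoxia and not detectably in normoxia. In hypoxia EHT exceeded monolayer by 2.03 ± 0.42 on the centred log2 scale (adjusted p = 0.00236, 4.09-fold), and by 1.39 ± 0.24 (2.62-fold) without replicate 3. In normoxia the difference was 0.56 ± 0.42 (adjusted p = 0.306, 95% interval -0.34 to 1.46), and on the uncentred deposited values it was -0.18. The response itself was 1.48 ± 0.59 larger in EHT than in monolayer, which missed the threshold (adjusted p = 0.0862), as it did without replicate 3 (0.83, adjusted p = 0.0597). It passed on the uncentred values (2.18, adjusted p = 0.0193) and on log2(RPM + 1) (1.98, adjusted p = 0.0225), as well as without replicate 1 of EHT hypoxia (1.87) and without both EHT libraries numbered 3 (1.07, adjusted p = 0.00684).

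GCLC moved with HMOX1 across the libraries. It had 23.2, 28.3 and 21.0 RPM in monolayer normoxia and 45.1, 38.6 and 41.5 in monolayer hypoxia. In EHT it had 22.6, 20.5 and 29.9 RPM in normoxia and 40.8, 47.4 and 70.2 after hypoxia. No hypoxia library overlapped a normoxia library, while the cultures overlapped in RPM within each oxygen condition. The rise was 1.47 ± 0.21 on the centred log2 scale in monolayer (adjusted p = 9.93e-05, 2.77-fold) and 1.27 ± 0.21 in EHT (adjusted p = 0.000494, 2.42-fold), or 1.02 in EHT without replicate 3. On the uncentred values the monolayer rise was 0.92 and missed the threshold (adjusted p = 0.153). The EHT minus monolayer difference of GCLC was 0.40 ± 0.21 in normoxia (adjusted p = 0.139) and 0.20 ± 0.21 in hypoxia (adjusted p = 0.467), and the response differed between cultures by -0.20 (95% interval -0.83 to 0.43), or -0.45 without replicate 3 (adjusted p = 0.151). The normoxia value turned to -0.34 on the uncentred values, and the hypoxia value to -0.049 without replicate 3.

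GCLM, the partner subunit of the same enzyme, did not follow GCLC. It had 10.6, 7.67 and 9.49 RPM in monolayer normoxia and 3.11, 2.15 and 2.99 in monolayer hypoxia, from 22 to 26 reads in each hypoxia library. In EHT it had 19.0, 14.9 and 19.8 RPM in normoxia and 5.86, 3.92 and 29.0 after hypoxia. All 3 monolayer hypoxia libraries were thus below all monolayer normoxia libraries, whereas in EHT 2 hypoxia libraries were below the normoxia range and replicate 3 was above it. In monolayer the centred log2 difference after hypoxia was -0.62 ± 0.46 (adjusted p = 0.299). On log2(RPM + 1), where the libraries are not centred and the median of all genes was -0.65 in place of 0.07, it was -1.45 (adjusted p = 0.0233). With median-of-ratios scaling of the recovered reads, where that median was -0.08, it was -1.07 (adjusted p = 0.136). In EHT it was -0.56 ± 0.46 with all libraries (adjusted p = 0.384) and -1.30 ± 0.24 without replicate 3 (adjusted p = 0.000752).

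Between cultures GCLM lay near the threshold, with the higher values in EHT. The centred log2 difference was 1.22 ± 0.46 in normoxia (adjusted p = 0.0517) and 1.28 ± 0.46 in hypoxia (adjusted p = 0.0449), and the groups did not overlap in either. The hypoxia call was lost when any of the 3 monolayer hypoxia libraries or replicate 3 of EHT hypoxia was left out (0.54, adjusted p = 0.0890, without the latter). It was also lost on the uncentred values (1.24, adjusted p = 0.0768), and it held in 7 of 18 alternative fits. The difference of responses was 0.06 with all libraries and -0.68 without replicate 3 (adjusted p = 0.119).

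**Figure D2:**
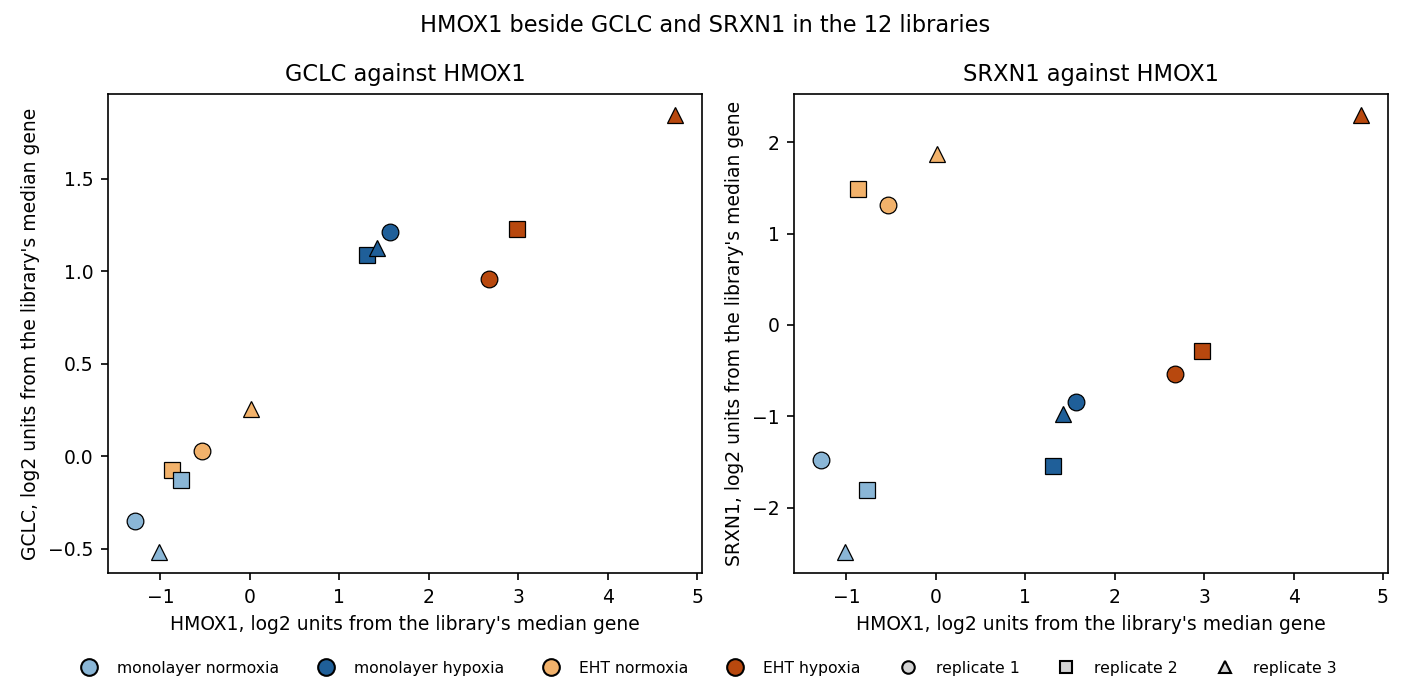
Centred log2 values of GCLC (left) and SRXN1 (right) on the y axes against HMOX1 on the x axes in the 12 libraries, with 1 colour per group and 1 marker shape per replicate number. GCLC rises along with HMOX1, with a correlation of 0.95, while SRXN1 is high in EHT normoxia and in replicate 3 of EHT hypoxia and has a correlation of 0.31 with HMOX1.

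SRXN1 showed the largest difference between cultures among the 6 genes. It had 9.03, 7.11 and 4.55 RPM in monolayer normoxia and 58.0, 66.4 and 98.2 in EHT normoxia. After hypoxia it had 9.05, 4.79 and 8.62 RPM in monolayer and 13.0, 15.1 and 96.4 in EHT. The 3 EHT normoxia libraries and replicate 3 of EHT hypoxia were at 58.0 or more, and the other 8 libraries at 15.1 or less. In normoxia EHT exceeded monolayer by 3.48 ± 0.57 on the centred log2 scale (adjusted p = 0.000438), or 11.1-fold. After hypoxia the excess was 1.61 ± 0.57 (adjusted p = 0.0405), and 0.71 without replicate 3 (adjusted p = 0.0782). That call was also lost without any 1 of the 3 monolayer hypoxia libraries, and it held in 9 of 18 alternative fits.

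On the centred values the call for SRXN1 after hypoxia in EHT depended on replicate 3, while with voom the fall was called with all libraries. In EHT the difference was -1.06 ± 0.57 (adjusted p = 0.168) with all libraries and -1.97 ± 0.30 (adjusted p = 0.000200) without it. In monolayer it was 0.80 ± 0.57 (adjusted p = 0.274), with overlapping groups. The difference of responses was -1.87 ± 0.81 (adjusted p = 0.112), and -2.77 ± 0.40 without replicate 3 (adjusted p = 0.000279), the single call for a difference of responses among the 6 genes in that setting.

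NQO1 was also higher in EHT than in monolayer in normoxia. It had 6.55, 5.73 and 5.69 RPM in monolayer normoxia and 15.4, 21.2 and 61.9 in EHT normoxia, with no overlap. After hypoxia it had 1.84, 1.17 and 1.49 RPM in monolayer, from 12 or 13 reads in each library, and 1.78, 7.68 and 49.1 in EHT. The EHT hypoxia libraries were spread from the monolayer hypoxia level up into the EHT normoxia range. In normoxia the excess in EHT was 2.27 ± 0.72 on the centred log2 scale (adjusted p = 0.0238, 4.82-fold). The call was lost without replicate 2 (adjusted p = 0.0580) or 3 (adjusted p = 0.0641) of monolayer normoxia, or replicate 3 of EHT normoxia (adjusted p = 0.0944). After hypoxia the excess was 1.92 ± 0.72 (adjusted p = 0.0520), and 0.87 without replicate 3 (adjusted p = 0.163).

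After hypoxia NQO1 was lower in all 3 monolayer libraries than in any monolayer normoxia library, but the fitted difference was not called. It was -0.65 ± 0.72 on the centred log2 scale (adjusted p = 0.498), -1.49 on log2(RPM + 1) (adjusted p = 0.114) and -1.30 with median-of-ratios scaling (adjusted p = 0.250). In EHT it was -1.0 ± 0.72 (adjusted p = 0.311), and -2.04 ± 0.47 without replicate 3 (adjusted p = 0.00357). The difference of responses was -0.35, with a 95% interval from -2.56 to 1.86, and -1.40 without replicate 3 (adjusted p = 0.107).

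CAT had a pattern of its own, being low in monolayer hypoxia. It had 56.5, 60.5 and 91.0 RPM in monolayer normoxia and 17.4, 20.9 and 22.2 in monolayer hypoxia. In EHT it had 45.5, 43.9 and 93.6 RPM in normoxia and 42.3, 51.4 and 45.7 after hypoxia. The 3 monolayer hypoxia libraries lay under the other 9, which overlapped. CAT fell by 0.94 ± 0.25 on the centred log2 scale in monolayer after hypoxia (adjusted p = 0.00736), to 0.523 of its normoxia level. The size of this fall depends on the scaling: the difference was -1.49 on the uncentred values and ran from -1.71 to -0.71 over the alternatives. In EHT the centred difference was -0.04 ± 0.25 (adjusted p = 0.921, 95% interval -0.57 to 0.49), or -0.06 without replicate 3 (adjusted p = 0.876). After hypoxia EHT exceeded monolayer by 1.04 ± 0.25 (adjusted p = 0.00556), and by 1.01 without replicate 3 (adjusted p = 0.0108), though on the uncentred values the call was lost (adjusted p = 0.173). The difference of responses was 0.90 ± 0.35 (adjusted p = 0.0773), and 0.87 without replicate 3 of EHT hypoxia (adjusted p = 0.0815). It passed on log2(RPM + 1) (1.41, adjusted p = 0.0128), without replicate 3 of EHT normoxia (1.18, adjusted p = 0.0125), without both EHT libraries numbered 3 (1.16, adjusted p = 0.00780) and with the replicate number as a block (adjusted p = 0.0328). In normoxia the cultures differed by 0.14 ± 0.25 (adjusted p = 0.679), and the sign turned on the uncentred values (-0.60) and on log2(RPM + 1) (-0.24).

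TXNRD1 and SOD2 were listed at 0 in each of the 12 libraries, as were 1595 genes in all. With 3 reads as the limit that a count of 0 allows, each could have had up to 0.266 to 0.722 RPM, depending on the depth of the library, and this limit covers counting error only. Both genes are broadly expressed in primate tissues, and whether their reads were left unassigned in the count step was not tested. No statement on either gene in these cultures is made.

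**Figure D3:**
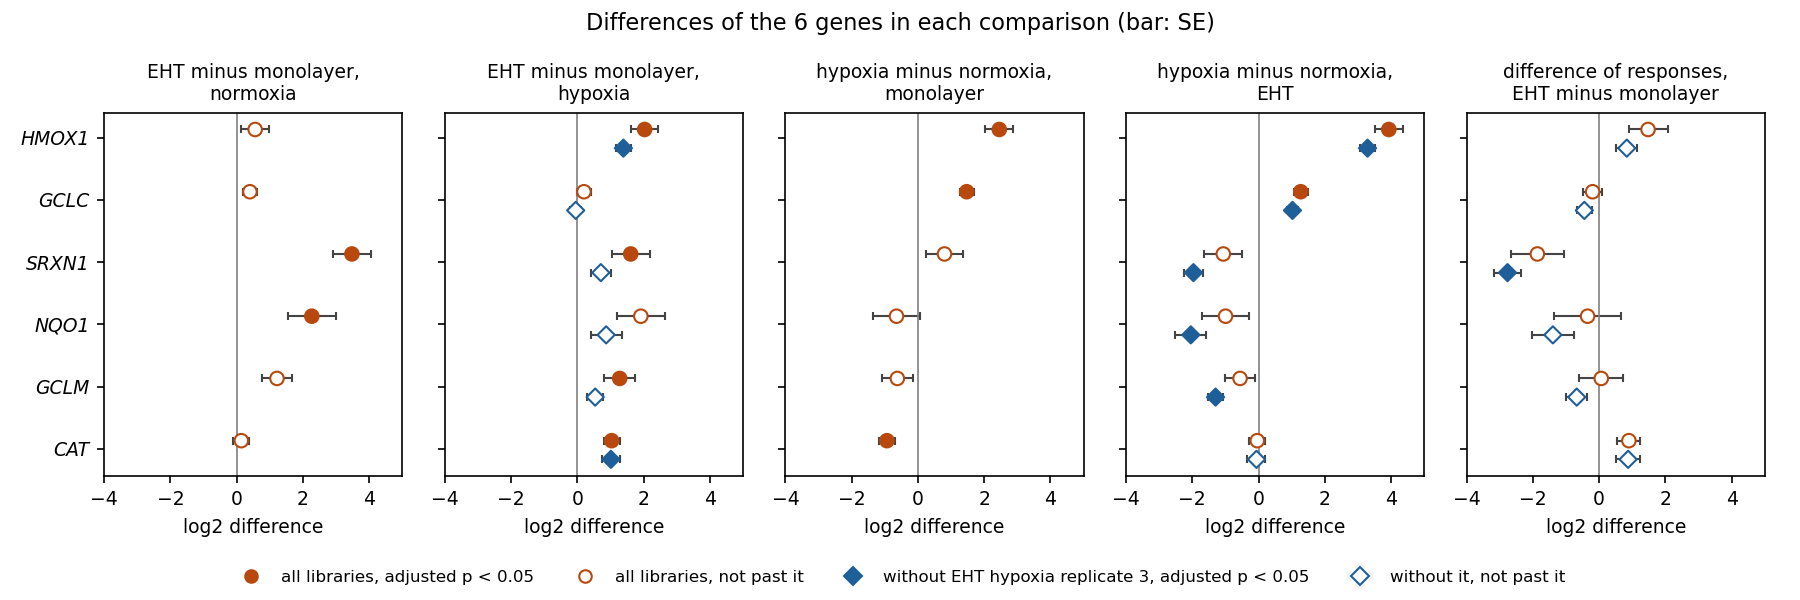
Centred log2 difference (x axis) of the 6 genes (y axis) in the 5 comparisons, with bars for the SE from limma, circles for all libraries, diamonds without replicate 3 of EHT hypoxia, and filled symbols for an adjusted p under 0.05. HMOX1 and GCLC lie above 0 after hypoxia in both cultures, and the EHT values of SRXN1, NQO1 and GCLM after hypoxia move farther below 0 without replicate 3.

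Counted together, 2 of the 6 genes passed in EHT against monolayer in normoxia, both higher (SRXN1 and NQO1), where 41.2% of the 12084 genes tested passed (22.8% higher and 18.5% lower). After hypoxia 4 of 6 passed, all higher in EHT (HMOX1, CAT, SRXN1 and GCLM), against 38.1% of all genes (18.4% higher and 19.7% lower). Without replicate 3 this was 2 of 6, HMOX1 and CAT, against 37.5%. Hypoxia against normoxia in monolayer passed for 3 of 6 (HMOX1 and GCLC up, CAT down), against 46.5% (27.8% higher and 18.6% lower). In EHT it passed for 2 of 6, HMOX1 and GCLC, against 35.5% (19.5% higher and 16% lower), and for 5 of 6 without replicate 3 against 44%, when SRXN1, NQO1 and GCLM were lower. For the difference of responses 0 of 6 passed against 24.5% (10.3% higher and 14.1% lower), although HMOX1, SRXN1 and CAT had an unadjusted limma p under 0.05 (0.0266, 0.0381 and 0.0228), and 1 of 6 passed without replicate 3 against 33.7%. With calls this common among all genes, the counts do not set the 6 genes apart. With all libraries, the median difference of the 6 genes was 0.89 and 1.45 between cultures in normoxia and hypoxia, beside 0.07 and -0.02 for all genes tested. It was 0.09 for hypoxia in monolayer and -0.30 in EHT, beside 0.07 and 0.03. Without replicate 3 the differences between cultures in hypoxia ran from -0.05 (GCLC) to 1.39 (HMOX1), all below that median of 1.45. Without centring the normoxia median was 0.15, beside -0.66 for all genes.

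Across the 12 libraries the 6 genes formed 2 sets and CAT. HMOX1 and GCLC had a Pearson correlation of 0.95 (0.93 without replicate 3 of EHT hypoxia). NQO1 with GCLM had 0.92, NQO1 with SRXN1 0.89, and GCLM with SRXN1 0.86. Between the sets, HMOX1 had 0.31 with SRXN1, 0.15 with NQO1 and 0.11 with GCLM, and these became -0.02, -0.32 and -0.49 without replicate 3. CAT had its highest value with NQO1, 0.63. The libraries share 4 groups, so these values mainly restate the group pattern and carry no test.

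Replicate 3 of EHT hypoxia had the highest value of its group in 5 of the 6 genes. Against the mean of replicates 1 and 2 it was higher by 3.14 in NQO1, 2.70 in SRXN1, 2.22 in GCLM, 1.93 in HMOX1 and 0.75 in GCLC, and by 0.07 in CAT, all in centred log2 units. The median over all genes tested was -0.06. Of 20 other NRF2 target genes, 15 were above both other libraries, as were 8 of 9 regulators and 37.2% of all genes tested. The same 20 genes lay nearer to the EHT normoxia mean than to replicates 1 and 2 in 15 cases, and the 9 regulators in 3, against 46.3% of all genes. HMOX1 and GCLC go the other way: in this library both were farther from EHT normoxia than in the other 2. Cardiomyocyte markers made up 0.00306% of its reads, against 0.0642% and 0.0831% in replicates 1 and 2 and 0.00218% to 0.0182% in EHT normoxia. Epithelial markers made up 0.00154%, against 0.0145% and 0.0171% in replicates 1 and 2 and 0.000816% to 0.00159% in EHT normoxia. The part of these shares in the result was not tested.

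Among 9 regulators of NRF2 and BACH1 activity, most were higher in EHT normoxia and after hypoxia in monolayer. In normoxia 7 of 9 were higher in EHT and the other 2 did not pass, with a median difference of 0.89, where 22.8% of all genes tested were called higher. The leading genes were SQSTM1, an autophagy receptor that binds KEAP1 (2.95 ± 0.16, adjusted p = 3.13e-07), MAFG, a small MAF partner (2.26), and BACH1 (1.62). After hypoxia in monolayer 8 of 9 rose and the remaining gene did not pass, where 27.8% of all genes were called higher, again led by SQSTM1 (3.11) and BACH1 (1.94), with MAFF at 2.45. After hypoxia in EHT 2 of 9 rose, MAFF (2.31) and BACH1 (1.0), where 19.5% of all genes were called higher. Without replicate 3 MAFF and BACH1 were at 2.25 and 0.93, with KEAP1 called lower. In EHT against monolayer in hypoxia 18.4% of all genes were called higher and 19.7% lower. Of the 9 regulators 3 were higher, with MAFG at 1.59, and CUL3, a scaffold of the KEAP1 ubiquitin ligase, was lower at -0.94 (1.32 and -1.05 without replicate 3). On the uncentred values fewer passed, 2 of 9 in EHT normoxia and 3 of 9 after hypoxia in monolayer, all higher. On RPM the splits were 6 higher and 1 lower, and 3 and 1. With median-of-ratios scaling and with voom they were 6 and 1, and 8 and 0. Quantile normalization gave 7 and 1, and 6 and 0.

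SQSTM1 had 171, 143 and 134 RPM in monolayer normoxia, 789, 819 and 728 in monolayer hypoxia, 691, 857 and 1226 in EHT normoxia, and 901, 953 and 926 in EHT hypoxia. Monolayer normoxia alone was low, and the other 9 libraries were at 691 or more. NFE2L2 itself, named here for its place in the pathway, differed by 0.79 between cultures in normoxia (adjusted p = 0.00195) and by 0.81 after hypoxia in monolayer (adjusted p = 0.00131). In RPM NFE2L2 overlapped between monolayer normoxia (141 to 167) and hypoxia (151 to 163). The median difference of all genes tested was -0.65 there on log2(RPM + 1). The rise of NFE2L2 after hypoxia is thus one relative to other genes and not in its share of reads. KEAP1, named for the same reason, passed in none of the 5 comparisons with all libraries, with differences from -0.26 to 0.44, and was lower after hypoxia in EHT without replicate 3 (-0.43, adjusted p = 0.0404). BACH1, the repressor of HMOX1, had 97.3, 92.5 and 108.5 RPM in monolayer normoxia and 224.0, 235.8 and 234.4 in monolayer hypoxia. In EHT BACH1 had 258.5, 280.3 and 188.8 RPM in normoxia and 427.3, 358.3 and 410.1 after hypoxia, and EHT normoxia overlapped monolayer hypoxia.

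**Figure D4:**
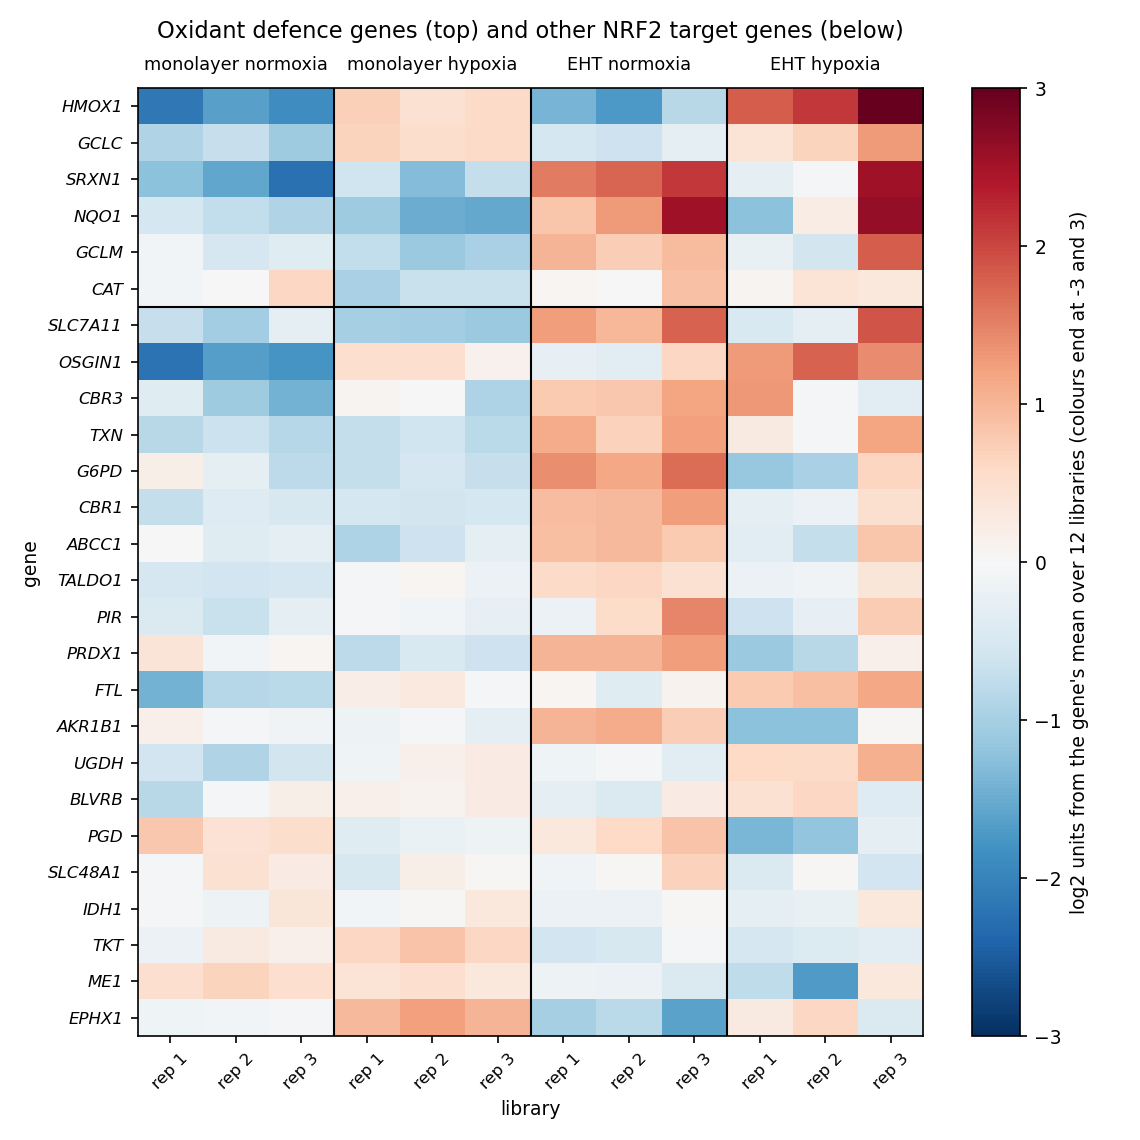
Heat map of centred log2 values, each gene shown relative to its mean over the 12 libraries (colour scale in log2 units), for the 6 genes and 20 other NRF2 targets (rows) in the 12 libraries (columns, by group). SRXN1, NQO1, GCLM and SLC7A11 are high in EHT normoxia and in replicate 3 of EHT hypoxia, and HMOX1 is high in the hypoxia libraries.

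Other NRF2 target genes were mostly higher in EHT in normoxia and were more often lower than higher after hypoxia in EHT. Of 27 named, 21 were in the table and 20 passed the filter on low values. In normoxia 13 of 20 were higher in EHT and 2 lower, with a median of 0.97, where 22.8% of all genes were called higher. Among them were CBR1, a carbonyl reductase (1.58 ± 0.19, adjusted p = 3.81e-05), TALDO1 of the pentose phosphate pathway (1.08) and OSGIN1 (1.90), while EPHX1, an epoxide hydrolase, was lower (-1.04). On RPM this split was 8 and 4, with quantile normalization 12 and 3, with median-of-ratios scaling 12 and 2 and with voom 13 and 3. Only the uncentred values turned it, to 1 higher and 3 lower, with a median of 0.23. SLC7A11, the cystine importer, had the second closest pattern to NQO1 of all genes considered, with 14.8, 11.5 and 21.3 RPM in monolayer normoxia and 47.9, 39.9 and 78.6 in EHT normoxia. After hypoxia it had 6.51, 6.16 and 6.44 RPM in monolayer and 11.5, 12.8 and 62.2 in EHT, again with replicate 3 at the level of EHT normoxia.

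After hypoxia in EHT 4 of the 20 targets rose and 7 fell, where 19.5% of all genes were called higher and 16% lower. Without replicate 3, 5 rose and 11 fell, where 2988 of 12084 genes were called higher and 2329 lower. The leading falls were AKR1B1, an aldose reductase (-1.76 ± 0.27, adjusted p = 0.000304), PRDX1, a cytosolic peroxiredoxin (-1.69), and PGD of the pentose phosphate pathway (-1.51). OSGIN1 (1.47), UGDH (0.92) and EPHX1 (1.29) rose. Without replicate 3 the falls of AKR1B1, PRDX1 and PGD were -2.18, -2.06 and -1.85. Calls lower outnumbered calls higher under each of the 5 other scalings tried, from 2 higher and 4 lower on the uncentred values to 4 and 8 on RPM. After hypoxia in monolayer 27.8% of all genes were called higher and 18.6% lower. Of the 20 targets 6 rose and 2 fell there, led by OSGIN1 (2.26) and FTL, the ferritin light chain (1.16). That split turned to 1 and 9 on RPM, 1 and 2 on the uncentred values and 3 and 4 with quantile normalization. In hypoxia 6 of 20 were higher in EHT and 4 lower, or 5 and 5 without replicate 3, and leaving out single libraries gave 1 to 5 lower. With all libraries 18.4% of all genes were called higher there and 19.7% lower. Higher members included TXN, thioredoxin (1.18), and TKT, transketolase, was lower (-1.12), at 0.82 and -1.16 without replicate 3.

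Of 16 tested genes of heme and iron handling, 4 were higher and 1 lower in EHT in normoxia, near the 22.8% of all genes called higher. In hypoxia 1 was higher and 2 lower, or 2 and 1 without replicate 3, where 18.4% of all genes were called higher and 19.7% lower with all libraries. SLC39A14, a metal importer, was higher in EHT normoxia by 1.32, and SLC40A1, the iron exporter ferroportin, was lower by -1.20. In monolayer 6 rose and 1 fell after hypoxia, where 27.8% of all genes rose: NCOA4, which delivers ferritin to autophagy, rose by 1.25 ± 0.13 (adjusted p = 1.00e-05) and SLC40A1 fell by 0.61. The directions depend on the scaling: on RPM the splits were 2 higher and 4 lower between cultures in normoxia and 1 and 8 after hypoxia in monolayer, and on the uncentred values 1 passed in each, as lower. Quantile normalization gave 3 and 2 after hypoxia in monolayer, and median-of-ratios scaling and voom gave 5 and 3. In EHT 2 rose and 2 fell, with FTL at 1.01 and ALAS1, the first enzyme of heme synthesis, at 0.94, where 19.5% of all genes were called higher and 16% lower. Without replicate 3, 5 rose and 2 fell, where 2988 of 12084 genes were called higher and 2329 lower. HMOX2, the constitutive heme oxygenase, is named as the counterpart of HMOX1: it differed after hypoxia by 0.60 in monolayer (adjusted p = 0.0217) and by 0.18 in EHT (adjusted p = 0.501). In RPM HMOX2 overlapped between monolayer normoxia (75.2, 102.6 and 78.6) and hypoxia (79.8, 73.4 and 78.7). With the median of all genes at -0.65 there on log2(RPM + 1), its rise is one relative to other genes and not in its share of reads.

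Among 28 tested genes that remove peroxide or superoxide, 16 were higher and 1 lower in EHT in normoxia, with a median of 0.53, where 22.8% of all genes were called higher. GPX1, a cytosolic glutathione peroxidase, was higher by 2.09 ± 0.16 (adjusted p = 1.82e-06), MSRB3 by 1.46 and GPX8 by 1.37, and TXNIP, an inhibitor of thioredoxin, was lower (-2.41). On the uncentred values that split was 2 and 3, with a median of -0.20, and on RPM 10 and 5. After hypoxia in monolayer 12 rose and 3 fell, where 27.8% of all genes were called higher and 18.6% lower. But on RPM 4 rose and 16 fell, and on the uncentred values 2 and 6. SESN3, a sestrin, rose by 2.58, and GLRX5, a mitochondrial glutaredoxin, fell by 1.20. After hypoxia in EHT 4 rose and 11 fell, with a median of -0.44, where 19.5% of all genes were called higher and 16% lower. Single libraries left out gave 7 to 13 falls, and the uncentred values gave 2 rises and 1 fall. GPX4, which reduces lipid peroxides, fell by 1.08 ± 0.12 (adjusted p = 3.74e-05) and GPX1 by 1.10, and TXNIP rose by 2.05. Without replicate 3, 5 rose and 13 fell, with GPX4 at -1.18, where 2988 of 12084 genes were called higher and 2329 lower. In hypoxia 7 were higher in EHT and 6 lower, or 7 and 5 without replicate 3, with GPX4 at -1.46 or -1.56. With all libraries 18.4% of all genes were called higher there and 19.7% lower.

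**Figure D5:**
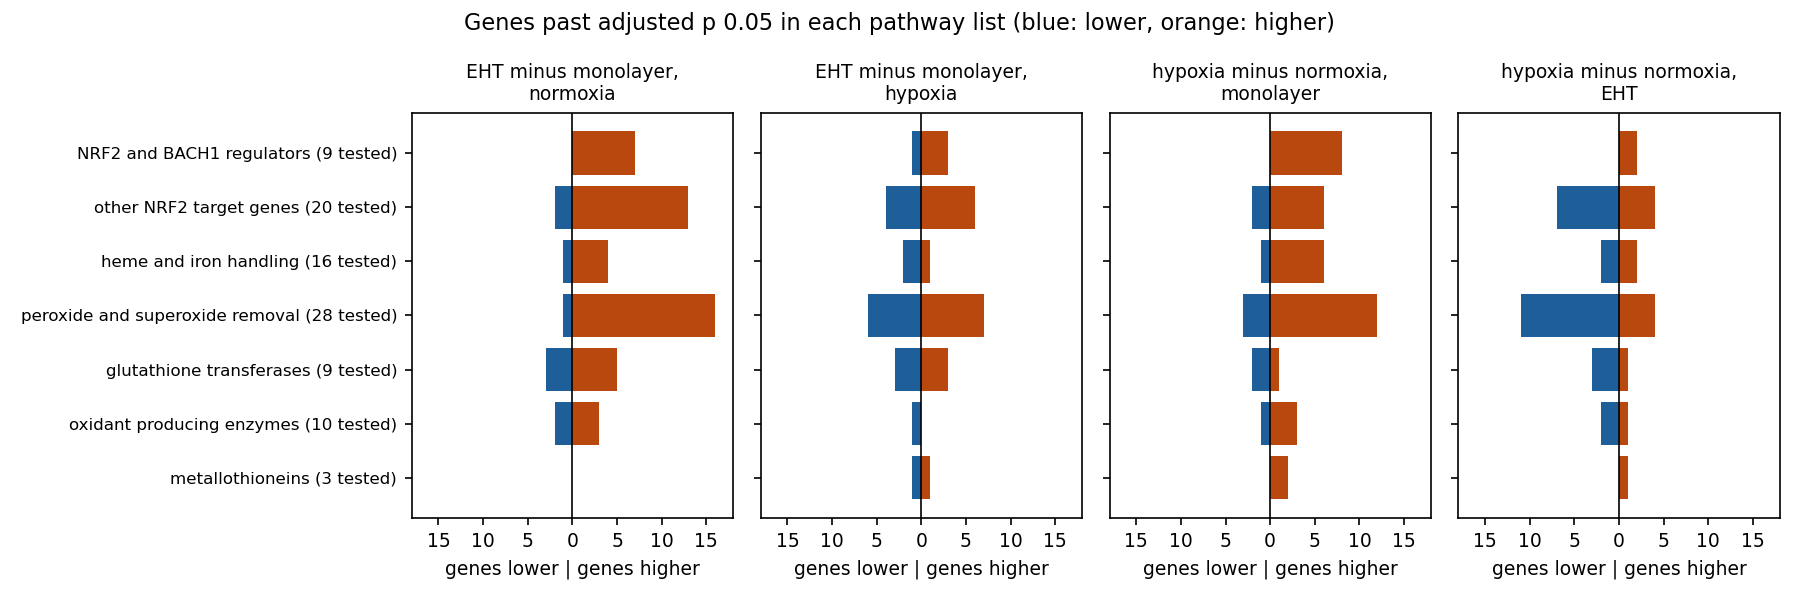
Number of tested genes of each list called higher (orange, to the right) or lower (blue, to the left) in the comparisons of cultures and of oxygen conditions with all libraries, on the centred log2 values. The other NRF2 targets and the peroxide and superoxide list have more genes higher than lower in EHT in normoxia and more lower than higher after hypoxia in EHT, which without centring held for neither list in normoxia and for the targets alone after hypoxia.

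For the lists of this paragraph, the shares of all genes called higher and lower were 22.8% and 18.5% between cultures in normoxia. They were 18.4% and 19.7% between cultures in hypoxia, 27.8% and 18.6% after hypoxia in monolayer, and 19.5% and 16% in EHT. Of 9 tested glutathione transferases, 5 were higher and 3 lower in EHT in normoxia, with GSTP1 at 1.04 and GSTM3 at -2.37. In hypoxia 3 were higher and 3 lower, and after hypoxia 1 rose and 2 fell in monolayer and 1 rose and 3 fell in EHT, where GSTM3 rose by 1.59 and GSTZ1 fell by 0.80. Without replicate 3 of EHT hypoxia the counts were 3 higher and 2 lower between cultures in hypoxia, and 2 and 3 after hypoxia in EHT. The splits of this list depend on the scaling: between cultures in normoxia 3 passed on the uncentred values, all lower, and on RPM 2 were higher and 3 lower. After hypoxia in monolayer 5 passed on RPM and 3 with quantile normalization, all lower, and in EHT 1 passed on the uncentred values, as higher. Of 10 tested oxidant-producing enzymes, 3 were higher and 2 lower in EHT in normoxia, with CYBA, a subunit shared by NADPH oxidases, at 1.53. In hypoxia 1 passed, NOX4, a hydrogen peroxide-producing oxidase, which was lower in EHT (-2.21), and 3 others passed as higher without replicate 1 of EHT hypoxia. NOX4 rose by 1.75 after hypoxia in monolayer, where 3 rose and 1 fell, and fell by 1.29 in EHT, where 1 rose and 2 fell, a difference of responses of -3.04 (adjusted p = 0.00251). Without replicate 3 NOX4 was at -2.51 between cultures in hypoxia and -1.59 after hypoxia in EHT, where 2 rose and 2 fell. On the uncentred values 1 of these enzymes was higher and 2 lower, both between cultures in normoxia and after hypoxia in monolayer, and on RPM the latter split was 2 and 2. Of 3 tested metallothionein genes and regulators, 2 rose after hypoxia in monolayer, SLC30A1, a zinc exporter, by 1.80 and MT1X, a metal-binding protein, by 2.73. MT1X had 0 reads in the 3 EHT normoxia libraries and 110, 298 and 121 reads in EHT hypoxia.

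The difference of hypoxia responses between cultures was more often negative than positive in the NRF2-related lists on the centred values. It passed for 4 of 20 other targets, or 11 without replicate 3, and for 3 of 9 regulators, or 6 without replicate 3, all lower. With all libraries 14.1% of all genes were called lower and 10.3% higher. Without replicate 3 these calls were also more common, at 2238 lower and 1838 higher of 12084 genes. For the other targets RPM gave 1 higher and 2 lower, and without centring limma called none of the 20 and none had an unadjusted p under 0.05, with a median of 0.07. For the regulators 1 passed without centring and 1 on RPM, both lower. Quantile normalization, median-of-ratios scaling and voom gave 5, 3 and 4 of the other targets and 3, 4 and 4 of the regulators, all lower. Among peroxide and superoxide genes 11 were lower and 2 higher, or 14 and 3 without replicate 3, while on the uncentred values 1 was lower and 3 higher. SQSTM1 had the smallest p of the regulators, -2.80 ± 0.23 (adjusted p = 2.79e-05), and GPX4 of the peroxide list, -1.95 ± 0.17 (adjusted p = 4.32e-05).

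Markers of cell types were unequal between the groups. In normoxia cardiomyocyte markers made up 0.0102% ± 0.00802 of reads in EHT and 0.224% ± 0.161 in monolayer (SD, n = 3 each), and epithelial markers 0.00124% ± 0.000392 and 0.430% ± 0.399. After hypoxia cardiomyocyte markers made up 0.585% ± 0.0286 in monolayer and 0.0501% ± 0.0419 in EHT. Epithelial markers made up 0.0115% in monolayer hypoxia, where all 3 libraries lay below the normoxia range, and endothelial markers averaged 0.00458% to 0.0326% in the 4 groups. Fibroblast markers averaged 4.54% to 6.06% in the 4 groups. Macrophage markers, of a cell type rich in HMOX1, averaged 0.00317% to 0.0148% and hepatic markers 0.000752% to 0.0141%, with ALB at 0 in all groups but monolayer normoxia. Groups that did not overlap had an exact two-sided permutation p of 0.1, the smallest that 3 against 3 libraries can give. The part of cell makeup in the results of the 6 genes was not tested.

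The genes with patterns most like those of single members were found by Pearson correlation of centred log2 values over the 12 libraries. For HMOX1 they were FAM57A (0.98), PRELID2 (0.97) and CABP1 (0.97). For NQO1 they were SLC35G1 (0.97), SLC7A11 (0.95) and TRPA1 (0.95), and for CAT EDNRB (0.93), PPOX (0.92) and MED22 (0.92). Without replicate 3 of EHT hypoxia the 9 values ran from 0.918 to 0.982.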

How the data were processed

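The authors deposited 1 table of log2 variance-stabilised values, made by alignment with HISAT2, counting with featureCounts and transformation with DESeq2, per the submitters' processing notes. The sources used here give no versions, build or annotation, so no positions are printed. Inverting the transformation (lowest value 3.00, for 0 reads) gave whole reads for 100% of values within 0.01. Size factors in the deposited values differed from recomputed median-of-ratios factors by 0.412 to 1.42 times, so each library was centred on its median. Centring does not remove differences in composition between libraries, and the transformation understates folds of genes with few reads.

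The 12084 genes whose mean exceeded the lowest value by 1 or more log2 units were fitted with limma 3.58.1 in R 4.3.3, with 1 mean per group over 12 libraries, a variance trend and Benjamini-Hochberg adjustment over all genes at 0.05. The script was tested on simulated data. The 5 comparisons set the cultures against each other in normoxia and in hypoxia, the oxygen conditions against each other within each culture, and the 2 responses against each other. Lists are regulators, other NRF2 targets, heme and iron, peroxide and superoxide removal, glutathione transferases, oxidant producers, metallothioneins, and markers of cardiomyocytes, fibroblasts, epithelium, endothelium, macrophages and liver. Up to 3 genes per list, direction and comparison with the smallest p are named, besides the 8 genes; NFE2L2, KEAP1, BACH1, HMOX2 and SLC7A11 were added after their values were seen. Members and lists were chosen with earlier results of these data known. Alternatives were uncentred values, quantile normalization, median-of-ratios, RPM (pseudocount 1), voom, other filters, a replicate block and left-out libraries.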

Additional observations from a re-analysis of the deposited data

Results flagged for a closer look

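The response to hypoxia differed between EHT and monolayer by limma's test of the difference (adjusted p under 0.05) in 10 genes that had the smallest p of their list and direction. On the centred log2 scale the EHT response minus the monolayer response was -2.80 for SQSTM1, -1.0 for TALDO1, -0.96 for NCOA4, -1.95 for GPX4 and 2.80 for TXNIP. It was 1.16 for GSTM3, -1.26 for CYBA, 1.88 for DUOX1, -1.46 for SLC30A1 and 2.01 for MT1X. The EHT normoxia libraries had 0, 1 and 0 reads of DUOX1 and 0 reads of MT1X, so the fitted values of these genes depend on how the transformation treats low counts.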

How the results depend on the processing

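Of the 30 differences of the 6 genes, 11 passed, and 6 of these kept direction and call in every alternative: HMOX1 after hypoxia in both cultures and between cultures in hypoxia, GCLC after hypoxia in EHT, SRXN1 between cultures in normoxia, and CAT after hypoxia in monolayer. Of 564 fits of these differences under alternatives, 483 kept direction and call, 25 lost the call, 32 gained one, and 24 changed sign, 0 of them where the difference had passed. The cause was not tested for any of the changes below.

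Without centring, calls over all genes fell to 1553 from 4602 between cultures in hypoxia, to 2945 from 5615 after hypoxia in monolayer, to 1128 from 4292 after hypoxia in EHT, and to 1249 from 2956 for the difference of responses. Leaving out 1 library gave 3401 to 4530, 4472 to 4969, 3287 to 5317 and 2096 to 4076 calls in the same order, and leaving out both EHT libraries numbered 3 gave 4933 between cultures in hypoxia and 4264 for the difference of responses. Higher and lower calls between cultures in normoxia were 2750 and 2234, but 325 and 3099 without centring, 1332 and 4417 on RPM, 2259 and 2885 with median-of-ratios and 2554 and 3125 with voom. After hypoxia in monolayer they were 3362 and 2253, but 535 and 2410 without centring and 1139 and 6089 on RPM. In EHT they were 2360 and 1932, then 858 and 270, and 1609 and 3043. For the difference of responses they were 1248 and 1708, then 1147 and 102, and 3133 and 716.

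Signs that turned without centring were those of HMOX1 (-0.18), GCLC (-0.34) and CAT (-0.60) between cultures in normoxia, CAT after hypoxia in EHT (0.11), and the difference of responses of NQO1 (0.35) and GCLC (0.50). On RPM they were CAT between cultures in normoxia (-0.24) and the difference of responses of NQO1 (0.073) and GCLC (0.29), and with quantile normalization that of GCLM (-0.22). With libraries left out, the difference of responses ran from -1.40 to 0.54 for NQO1 and from -0.68 to 0.52 for GCLM. GCLC between cultures in hypoxia ran from -0.049 to 0.39, CAT between cultures in normoxia from -0.15 to 0.36, and CAT after hypoxia in EHT from -0.19 to 0.25. Without both EHT libraries numbered 3, these were -0.66 for GCLM, -0.049 for GCLC, and -0.15 and 0.22 for CAT.

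The labels give all groups the same replicate numbers, but nothing says that a number marks a shared culture. In no comparison did all 3 same-numbered pairs correlate above 0.1 in their deviations from the group means. The values ran from -0.06 to 0.33. The highest were 0.33 and 0.27, for replicates 2 and 3 between EHT normoxia and EHT hypoxia, and 0.23 for replicate 2 between cultures in normoxia. Of the 6 libraries of a comparison, 3 or 4 correlated best with their own number. With the replicate block the calls were 4976, 4591, 5574, 4223 and 2887 in the order of the comparisons, and NQO1 between cultures in hypoxia (adjusted p = 0.0379), GCLM between cultures in normoxia (adjusted p = 0.0430) and the CAT difference of responses (adjusted p = 0.0328) passed in limma.

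With 3 libraries per group, differences of the size seen for GCLM and NQO1 lie near what can be called, and 10 to 26 reads stand behind their lowest levels.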
